A study of Mus musculus with 298 samples.

Results

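The 8 genes described here encode proteins that mouse neutrophils make while they mature: the metalloproteinases Mmp8, Mmp9 and Mmp25, the secreted proteins Wfdc21 and Crispld2, and the surface proteins Ly6g, Cd177 and Itgb2l. They are 8 of the 14605 features in a table of TPM values (transcript abundances scaled for gene length and library total) from mouse whole blood, and were taken by name. They were chosen by their behaviour in these samples: a higher level after BCR-ABL induction (week 6 against week 0), a lower one under nilotinib (week 10 against week 6) and a higher one at the end in diseased mice. Values in those weeks are therefore description, and the tests below use other weeks of the same mice. Several of these are next to the weeks of the choice, so counts of how many of the 8 passed are not independent of it.

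Blood of 20 mice was sequenced, weekly in the CML, TKI and control cohorts and, in the TOTO cohort, at weeks 0 to 8, 12, 16 and 18. Every mouse, controls included, was C57BL/6 with the genotype tTA+/-, BCR-ABL+/-, 6 to 8 weeks old at the start, of either sex. Its tTA, driven by SCL regulatory sequence of early blood cells, turns the transgene on when tetracycline is taken from the drinking water (0.5 g/L). The CML cohort stayed off tetracycline (6 mice, 94 libraries). The TKI cohort went off tetracycline and then had nilotinib, an ABL kinase inhibitor, at 50 mg/kg by gavage from week 6 to week 10, still off tetracycline (7 mice, 99 libraries). The TOTO cohort was off tetracycline for 6 weeks and then back on it (4 mice, 48 libraries). The control cohort stayed on tetracycline (3 mice, 57 libraries). The labels do not say whether week 6 blood was drawn before or after the first nilotinib dose or the return of tetracycline. Nor do they say whether week 10 blood was drawn before or after the last nilotinib dose. The 17 mice of the CML, TKI and TOTO cohorts are called Tet-off mice for weeks 1 to 5, when they were kept alike. The tissue is labelled PBMC, but the RNA came from whole blood, and 14 neutrophil markers summed to 741 to 1689 TPM in control mice at week 5.

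Neutrophils pack proteins into granules in the order in which they mature: primary granules first, then secondary granules, which hold the collagenase Mmp8, then gelatinase granules, which hold Mmp9. Ly6g, Cd177 and Itgb2l are surface products of the same line of cells, and Ly6g is the antigen by which mouse neutrophils are usually stained. Chronic myeloid leukaemia is an overproduction of granulocytes driven by the BCR-ABL kinase that fills the blood with maturing and mature cells of that line.

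All 8 are protein-coding genes, each on a different chromosome (GRCm39, GENCODE M39): Mmp8 at chr9:7558457-7568487 (plus strand), Mmp9 at chr2:164780439-164797771 (plus), Mmp25 at chr17:23847285-23864251 (minus), Wfdc21 at chr11:83637766-83643472 (plus), Crispld2 at chr8:120719177-120779532 (plus), Ly6g at chr15:75027089-75030982 (plus), Cd177 at chr7:24443408-24459747 (minus) and Itgb2l at chr16:96223488-96244841 (minus). The values are whole-gene totals, with no split by exon or isoform. Ly6g belongs to a family of near-identical neighbours, so reads could be shared among them and its value is less certain.

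Because the genes moved together, their promoters are shown: RefSeq windows (build GRCm38.p6) of 250 bases before to 50 after the gene start, which were given for 6 of the 8 genes, Mmp9 and Wfdc21 being named only. Those printed are of Mmp8 and Ly6g, which differed most between transgene shut-off and nilotinib, and of Itgb2l, which was at or near 0 in control blood. The fourth is of Cd177, which gained most after induction on a log scale with 1 TPM added to each value. Each reads 5′ to 3′ on the gene's own strand, and capitals mark matches to AGGAAG (a PU.1-type core), TTNNGCAA (a C/EBP-type core) or TATAAA, on either strand.
Mmp8, chr9:7558179-7558478, plus strand: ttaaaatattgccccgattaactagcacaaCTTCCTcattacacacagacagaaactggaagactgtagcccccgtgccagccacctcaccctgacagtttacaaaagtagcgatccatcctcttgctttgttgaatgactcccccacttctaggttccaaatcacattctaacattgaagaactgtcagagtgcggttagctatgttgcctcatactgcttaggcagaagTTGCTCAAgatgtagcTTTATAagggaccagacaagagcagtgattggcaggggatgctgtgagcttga
Ly6g (the first of 2 listed starts), chr15:75155011-75155310, plus strand: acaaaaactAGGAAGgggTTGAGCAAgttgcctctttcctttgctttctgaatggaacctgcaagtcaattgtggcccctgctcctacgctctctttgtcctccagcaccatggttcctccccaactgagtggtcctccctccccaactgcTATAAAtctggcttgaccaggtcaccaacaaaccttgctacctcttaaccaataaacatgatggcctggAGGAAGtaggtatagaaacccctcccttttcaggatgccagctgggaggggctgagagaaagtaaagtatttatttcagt
Cd177, chr7:24760262-24760561, minus strand: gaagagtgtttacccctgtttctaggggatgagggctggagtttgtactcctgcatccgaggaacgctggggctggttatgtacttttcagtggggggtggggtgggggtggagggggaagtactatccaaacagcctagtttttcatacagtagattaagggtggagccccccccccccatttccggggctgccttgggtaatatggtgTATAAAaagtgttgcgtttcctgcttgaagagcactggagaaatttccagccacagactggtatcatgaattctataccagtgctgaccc
Itgb2l, chr16:96443565-96443864, minus strand: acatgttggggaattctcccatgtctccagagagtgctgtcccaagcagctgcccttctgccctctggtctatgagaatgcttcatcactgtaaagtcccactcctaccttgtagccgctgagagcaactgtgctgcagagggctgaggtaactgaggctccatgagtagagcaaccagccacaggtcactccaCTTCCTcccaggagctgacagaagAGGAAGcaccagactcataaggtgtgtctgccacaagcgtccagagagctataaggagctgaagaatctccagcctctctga

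The Mmp8 window held 1 match to each of the 3 motifs, at -220 for AGGAAG, -19 for TTNNGCAA and -3 for TATAAA, counted from the gene start to the match's first base. The Ly6g window held AGGAAG at -241 and -30, TTNNGCAA at -232 and TATAAA at -99. Itgb2l held AGGAAG only, at -56 and -32, and Cd177 held TATAAA only, at -40. Of the windows not printed, Mmp25 held AGGAAG at -121 and -12, and Crispld2 held none of these letters. Among 27025 promoters of this length, 35.1% held AGGAAG, 10.8% TTNNGCAA and 14.2% TATAAA on either strand. A STAT-type TTCNNNGAA, in 8.47% of promoters, was in none of the 6 genes' windows. A match is only a run of letters, and its absence says nothing about any factor.

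The files give TPM and no read counts, so the depth behind each value is unknown. Haemoglobin transcripts took 0.331% to 74.8% of a library (median 42.6%), and the small RNA gene Rn7s2 took 14.5% to 56.6%. TPM values share a fixed total, so a change in red cell RNA moves every other gene, and comparisons were repeated after scaling each library by its median ratio over genes, called the second scaling below. The transgene was at 0 in 49 of 57 control libraries and never above 0.716 TPM there. CML mouse 487 scarcely expressed it, with a mean of 0.0207 TPM over weeks 12 to 16. Control mouse 490 had 1 poor library at week 17, with 2552 genes at 1 TPM or more against a median of 9965 over all libraries.

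Before induction effects are considered, the genes differed widely in level, and Mmp9 was the most abundant in quiet blood. TPM is per length, so levels can be set side by side. Over all weeks the control median was 26.9 TPM for Mmp9 and 4.24 TPM for Mmp8, while Itgb2l had a control median of 0.0917 TPM and never passed 0.543 TPM there. In the 17 Tet-off mice at week 5 the medians ran Mmp9 126, Mmp8 96.1, Wfdc21 87.4, Cd177 41.0, Ly6g 18.9, Crispld2 14.9, Itgb2l 10.4 and Mmp25 10.3 TPM. Mmp9 stood above Mmp8 in 16 of 17 libraries, Cd177 above Ly6g in 17 and Crispld2 above Itgb2l in 16. Other neighbours did not keep their order, since Mmp8 exceeded Wfdc21 in 12 libraries, Ly6g exceeded Crispld2 in 12 and Itgb2l exceeded Mmp25 in 6.

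**Figure D1:**
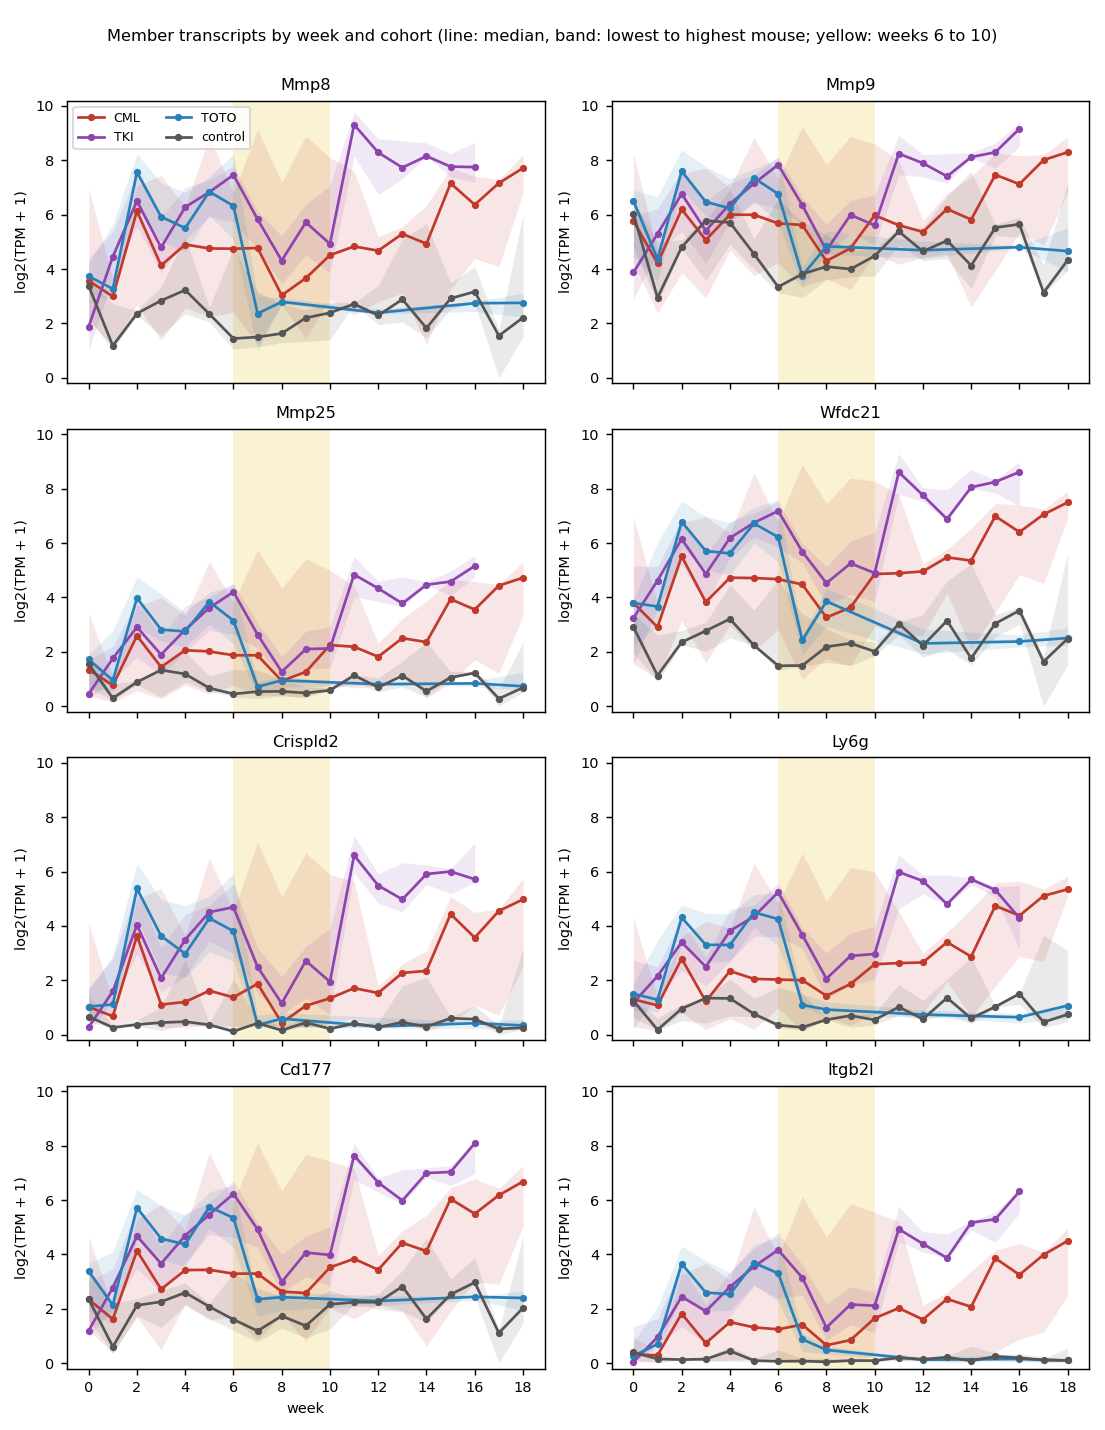
Level of each gene, log2(TPM + 1), by week of the study, as the median of each cohort (line) with a band from its lowest to its highest mouse; yellow marks weeks 6 to 10, and TOTO points are joined across weeks without libraries. The control cohort stays low, TOTO drops back after week 6, and TKI dips until week 10 and then climbs to a median Mmp8 of 635 TPM at week 11.

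In the weeks that served to choose the genes, the pattern was as follows and carries no test. Week 6 minus week 0 averaged 2.85 ± 2.31 log2 units for Mmp8, higher in 15 of 17 Tet-off mice, and 1.47 ± 2.22 for Mmp9, higher in 12 (SD, n = 17). Itgb2l had 2.61 ± 1.55 and was higher in 16. Week 10 minus week 6 in TKI mice ran from -1.78 to -2.41 across the 8 genes. The final week of CML mice minus week 0 ran from 2.15 for Mmp9 to 3.96 for Itgb2l, against -0.64 to 0.47 for week 18 minus week 0 in control mice.

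After induction, all 8 genes were higher at week 5 than at week 1 in the Tet-off mice. Among the proteases, Mmp8, the collagenase of secondary granules, stood at 3.78, 96.1 and 468 TPM (lowest, median and highest of 17 mice) at week 5, against 1.19, 11.5 and 49.3 TPM at week 1. Mmp9, gelatinase B, stood at 12.5, 126 and 462 TPM at week 5, against 4.21, 24.1 and 101 TPM at week 1. Mmp25, a membrane-anchored metalloproteinase known mainly from human neutrophils, had 0.358, 10.3 and 39.2 TPM at week 5, against 0.105, 1.12 and 5.87 TPM at week 1. The 2 weeks overlapped for all 3 proteases, because a few CML mice were still low at week 5. Within mice the changes were 2.33 ± 0.36 for Mmp8 (SE, log2 of TPM + 1, up in 16 of 17 mice, adjusted p = 3.83e-05), 1.94 ± 0.34 for Mmp9 (15 of 17, adjusted p = 0.000173) and 1.88 ± 0.32 for Mmp25 (15 of 17, adjusted p = 0.000125), by limma with Benjamini-Hochberg adjustment over all genes tested.

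The secreted and surface genes rose as well, Cd177 by the most on the log2(TPM + 1) scale. Wfdc21, a small whey acidic protein of granulocytes, had 3.10, 87.4 and 384 TPM at week 5, against 0.984, 12.7 and 64.4 TPM at week 1. Crispld2, a secreted CAP-domain protein that binds lipopolysaccharide in humans, had 0.250, 14.9 and 90.1 TPM at week 5, against 0.270, 1.34 and 6.53 TPM at week 1. Their changes were 2.22 ± 0.36 for Wfdc21 (15 of 17 mice, limma adjusted p = 7.98e-05) and 2.17 ± 0.34 for Crispld2 (16 of 17, limma adjusted p = 5.46e-05). Cd177, a GPI-anchored neutrophil surface protein, had 2.02, 41.0 and 212 TPM at week 5, against 0.278, 3.03 and 16.1 TPM at week 1. Itgb2l, an integrin beta-like chain found on mouse neutrophils, had 0.119, 10.4 and 52.7 TPM at week 5, against 0.0257, 0.609 and 3.15 TPM at week 1. Ly6g had 0.140, 18.9 and 77.7 TPM at week 5, against 0.0966, 1.61 and 10.1 TPM at week 1. On that scale the largest of the 8 changes was that of Cd177, 2.69 ± 0.38 (16 of 17 mice, limma adjusted p = 8.38e-06). Beside it were 2.27 ± 0.34 for Itgb2l (16 of 17, adjusted p = 2.87e-05) and 2.13 ± 0.35 for Ly6g (15 of 17, adjusted p = 9.77e-05). The added 1 TPM compresses the change of low genes such as Itgb2l, so the order of Cd177 and Itgb2l holds for this scale only.

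Thus 8 of 8 rose between weeks 1 and 5, where 45.6% of the 10087 genes tested rose and 4.09% fell, and the median of all genes was itself 0.35 higher. The 8 genes' median was 2.20, and 1.81 after the second scaling. In blood, fewer cells of a type and less RNA per cell cannot be told apart. The change was uneven between the labelled batches: the genes' mean changes ran from 2.60 to 3.51 in the 10 mice of batch 2022_A, from 0.77 to 1.51 in the 5 of 2022_B, and from 0.68 to 1.54 in the 2 of 2021_E. All 4 TOTO mice were in 2022_A, beside 4 TKI, 2 CML and 1 control mouse. The CML mice also spread by mouse at week 5: Mmp8 had 468 TPM in mouse 477, 108 in 484, 44.6 in 480, 7.56 in 541, 6.87 in 542 and 3.78 in 487. Mouse 477 was the highest of the CML mice for every one of the 8 genes, and mice 541, 542 and 487 stood near the control levels of 3.13 to 5.04 TPM.

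Set against control mice over the same weeks, none of the 8 changes passed the test. Control Mmp8 was 3.13, 4.09 and 5.04 TPM at week 5, against 1.26, 1.06 and 5.58 TPM at week 1, in mice 488, 489 and 490. Control Itgb2l was 0.124, 0.0400 and 0.0660 TPM at week 5, against 0.146, 0.0171 and 0.114 TPM at week 1. Control mice 488 and 489 were lower at week 1 than at week 5 for most of the genes. The differences of change, Tet-off minus control, ran from 0.94 ± 0.88 for Mmp9 to 2.29 ± 0.88 for Itgb2l (SE), each with a limma adjusted p of 0.795. That was 0 of 8 against a background of 0% (0 of 10087 genes, with 424 at an unadjusted p under 0.05), and the all-gene median was -0.34.

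Week 5 levels were also fitted without the week 1 baseline, a setting chosen after seeing that control mice were low at week 1. They were called higher in Tet-off mice for 7 of 8 genes, where 4.39% of all genes were higher and 2.45% lower. Single mice still overlapped, as for Mmp8 with 3.78 TPM in the lowest Tet-off mouse, against 3.13 to 5.04 TPM in control mice. Mmp8 differed by 3.73 ± 0.86 (limma adjusted p = 0.0189), Wfdc21 by 3.33 ± 0.89 (adjusted p = 0.0311) and Itgb2l by 2.91 (adjusted p = 0.0291). Mmp9 differed by 2.12 ± 0.67 and did not pass (adjusted p = 0.0543). Mmp9 was the gene with the highest level in control blood.

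**Figure D2:**
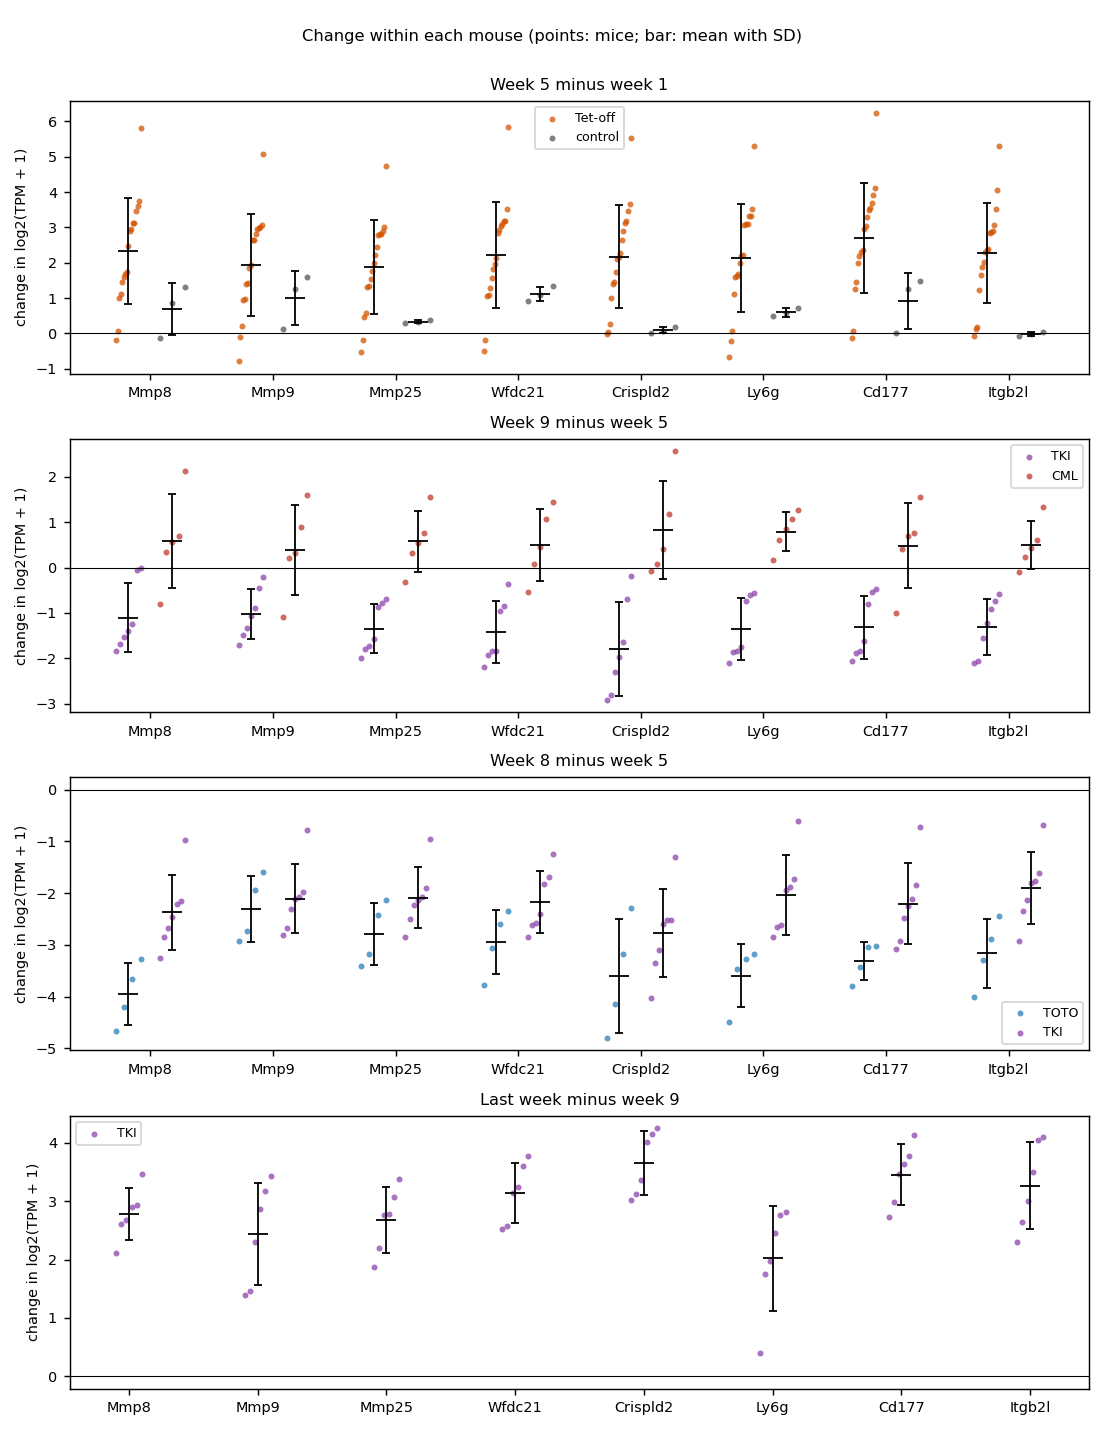
Change in each mouse (log2 of TPM + 1, points) with the group mean and SD (bars) for each gene in 4 comparisons: Tet-off and control mice at week 5 minus week 1, TKI and CML mice at week 9 minus week 5, TOTO and TKI mice at week 8 minus week 5, and TKI mice at the last week minus week 9. In the third panel TOTO and TKI mice are apart for Mmp8 and Ly6g and intermixed for Mmp9.

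The genes did not change by equal amounts after induction. Of the 28 pairs of genes, 12 differed in their week 5 minus week 1 change over the 17 Tet-off mice (exact sign-flip permutation test, two-sided, adjusted over the 28 pairs, smallest p the design allows 1.53e-05). Cd177 changed more than each of the other 7, by 0.36 to 0.81 log2 units. Mmp25 changed less than Mmp8, Cd177, Itgb2l, Ly6g and Wfdc21. Mmp8 changed more than Mmp9 by 0.39 ± 0.46 (SD, n = 17, 14 of 17 mice, exact permutation adjusted p = 0.0125). Low genes such as Mmp25 and Itgb2l are compressed by the added 1 TPM, and with 0.1 in its place 15 pairs differed.

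**Figure D3:**
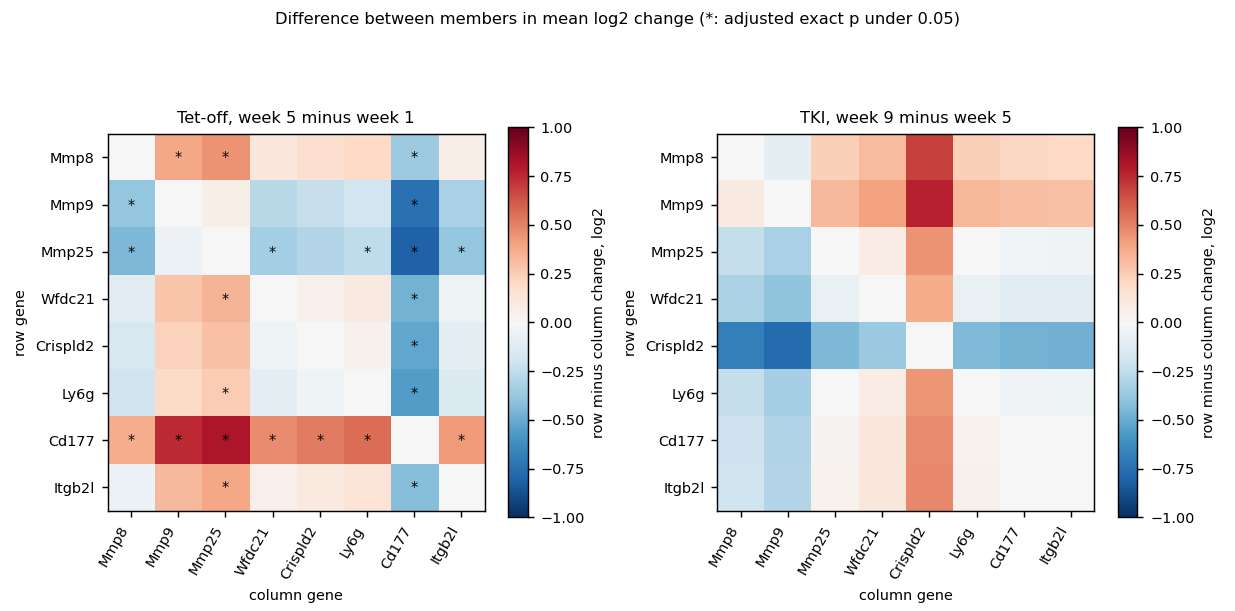
Difference between each pair of genes in their change (row gene minus column gene, log2 of TPM + 1) for the 17 Tet-off mice from week 1 to week 5 and for the 7 TKI mice from week 5 to week 9. Asterisks mark an adjusted exact p under 0.05, which 7 mice could hardly reach in the TKI panel, where the widest differences are those of Mmp9 and Mmp8 from Crispld2.

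Week 2 stood out within the induction period, a pattern noticed in the values and given without a test. Mmp8 in the 17 Tet-off mice had 5.45, 93.1 and 301 TPM (lowest, median and highest) at week 2, between 1.19, 11.5 and 49.3 TPM at week 1 and 1.60, 27.6 and 173 TPM at week 3. Crispld2 had 0.488, 18.9 and 77.7 TPM at week 2, between medians of 1.34 TPM at week 1 and 3.89 TPM at week 3. The level at week 2 was above both neighbouring weeks in 16 of 17 mice for Mmp8, Itgb2l, Wfdc21 and Crispld2, in 15 for Cd177, in 14 for Mmp25 and in 13 for Mmp9 and Ly6g, and in at most 1 of 3 control mice. At 15 or more of 17 mice, 0.704% of 10370 genes showed it. The mean excess over the neighbouring weeks was 1.95 ± 0.84 for Mmp8 and 2.03 ± 1.01 for Crispld2 (SD, log2, n = 17), against a range of -0.01 to 0.58 over the 8 genes in control mice.

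By cohort median, red cell RNA had a low at week 2 in TKI and TOTO mice but not in CML mice. Mouse by mouse, week 2 was below weeks 1 and 3 in CML mice 477, 480, 487 and 541. It was not in CML mice 484 and 542 or in TKI mice 513 and 514. The median haemoglobin share in TKI mice was 41.0% at week 1, 15.9% at week 2 and 53.7% at week 3. Over the same weeks in TOTO mice it was 53.1%, 19.5% and 44.2%, in CML mice 55.7%, 45.7% and 43.6%, and in control mice 73.4%, 58.8% and 49.3%. With red cell genes and Rn7s2 removed and the rest scaled again, week 2 was above both neighbours in 14 to 16 of 17 mice for each gene, with a mean excess from 0.88 for Ly6g to 1.85 for Crispld2, and 1.02% of genes passed 15 of 17. By batch, the excess of the 8 genes ran from 1.06 to 2.43 in 2021_E, 1.44 to 2.40 in 2022_A and 0.41 to 1.25 in 2022_B.

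Under nilotinib all 8 genes fell. All but Mmp8 and Mmp9 also passed the test against the change of CML mice, a result that rested on single CML mice. In TKI mice Mmp8 had 22.1, 51.7 and 82.6 TPM (lowest, median and highest of 7) at week 9, against 59.3, 113 and 154 TPM at week 5. Mmp9 had 39.5, 62.7 and 90.9 TPM at week 9, against 85.4, 141 and 176 TPM at week 5. Both weeks overlapped for these 2 proteases, and mouse 513 moved least in both, its Mmp8 being 82.6 TPM at week 9, against 83.7 TPM at week 5. Crispld2 had 1.54, 5.57 and 8.53 TPM at week 9, against 9.86, 21.7 and 26.2 TPM at week 5. Cd177 had 8.12, 15.7 and 24.5 TPM at week 9, against 25.6, 43.2 and 59.2 TPM at week 5. Itgb2l had 1.67, 3.45 and 6.01 TPM at week 9, against 6.20, 10.7 and 17.5 TPM at week 5. For Crispld2, Cd177 and Itgb2l the 2 weeks did not overlap, which is only description, as no share over all genes is given for it.

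Each of the 8 was lower at week 9 in 7 of 7 TKI mice, with changes from -1.02 ± 0.26 for Mmp9 (SE, limma adjusted p = 0.00896) to -1.79 ± 0.32 for Crispld2 (adjusted p = 0.000514). Ly6g changed by -1.35 ± 0.24 (limma adjusted p = 0.000403) and Wfdc21 by -1.42 ± 0.29 (adjusted p = 0.00142). The others were Mmp8 at -1.11 ± 0.28, Mmp25 at -1.34 ± 0.24, Cd177 at -1.32 ± 0.28 and Itgb2l at -1.31 ± 0.23. That was 8 of 8 where 2.42% of 10492 genes fell and 9.05% rose. Without pairing by mouse 0 of 8 passed. The transgene did not pass, at 0.58 ± 0.27 (limma adjusted p = 0.209). Batch 2022_A gave mean changes of -2.19 to -1.25 (4 mice) and 2022_B of -1.27 to -0.59 (3 mice). Differences between the 8 genes in this fall could hardly be tested: the smallest exact sign-flip permutation p for 7 mice is 0.0156, and after adjustment over 28 pairs 0 passed. Mmp8 fell less than Crispld2 in 7 of 7 mice, by 0.68, and Mmp9 less than Wfdc21 in 7 of 7, by 0.40 (exact permutation adjusted p = 0.219 for each).

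Week 8 was lower still than week 9 in the middle of treatment. The TKI median of Mmp8 was 113 TPM at week 5, 175 at week 6, 55.9 at week 7, 18.8 at week 8, 51.7 at week 9 and 29.4 at week 10. Mmp9 ran 141, 228, 80.6, 24.7, 62.7 and 47.7 TPM over the same weeks. Over weeks 5, 8, 9 and 10 the median of Ly6g was 19.4, 3.17, 6.45 and 6.83 TPM. The median haemoglobin share was 27.2% at week 5, 37.1% at week 8 and 25.5% at week 9, and the transgene median was 4.44, 3.52 and 7.65 TPM.

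CML mice, untreated over these weeks, gained on average 0.39 to 0.83 log2 units across the 8 genes (5 mice). Ly6g in CML mice was 8.96, 69.9, 0.281, 2.64 and 1.91 TPM at week 9, against 5.54, 28.5, 0.140, 0.746 and 0.626 TPM at week 5, in mice 480, 484, 487, 541 and 542. It was higher at week 9 in 5 of 5. The change of TKI minus that of CML mice was -2.14 ± 0.37 for Ly6g (SE, limma adjusted p = 0.00545), -2.62 ± 0.50 for Crispld2 (adjusted p = 0.0116) and -1.81 ± 0.36 for Itgb2l (adjusted p = 0.0148). Mmp25 (-1.92 ± 0.38, limma adjusted p = 0.0148), Wfdc21 (-1.93 ± 0.45, adjusted p = 0.0384) and Cd177 (-1.80 ± 0.44, adjusted p = 0.0429) also passed. Mmp8 did not, at -1.70 ± 0.43 (limma adjusted p = 0.0560), nor did Mmp9, at -1.41 ± 0.40 (adjusted p = 0.103).

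So 6 of 8 fell more in TKI than in CML mice, where 0.696% of genes did and 0.191% fell less or rose more, and the all-gene median was -0.12. It was 8 of 8 with red cell genes and Rn7s2 removed. Cd177 and Wfdc21 lost the call with a pseudocount of 0.1 (limma adjusted p = 0.165 and 0.0912) and without the filter on the mean (adjusted p = 0.0743 and 0.0637). The changes of the 2 groups did not overlap for Mmp25, Itgb2l, Ly6g and Crispld2, and did for Mmp8, Mmp9, Cd177 and Wfdc21. No share over all genes is given for this, so nothing is read from it. The count rests on single CML mice: it was 1 of 8 without mouse 480 or mouse 484, 2 without 541 and 3 without 542, 3 with batch as a term, and 0 without pairing by mouse.

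When the transgene was shut off by tetracycline, all 8 genes fell. In TOTO mice 476, 482, 483 and 545, Mmp8 was 5.60, 5.53, 6.65 and 6.27 TPM at week 8, against 167, 62.3, 96.1 and 132 TPM at week 5. Mmp9 was 29.0, 22.5, 41.1 and 26.1 TPM at week 8, against 199, 89.0, 126 and 206 TPM at week 5. All 4 mice dropped in both, and Mmp8 came to rest within a narrow span. Crispld2 was 0.215, 0.698, 0.745 and 0.309 TPM at week 8, against 32.9, 7.29, 14.9 and 22.1 TPM at week 5. Ly6g was 0.578, 0.577, 1.21 and 1.31 TPM at week 8, against 34.4, 14.3, 18.9 and 24.4 TPM at week 5. Cd177 was 4.64, 2.85, 4.11 and 5.08 TPM at week 8, against 77.2, 30.1, 41.0 and 64.5 TPM at week 5. The 2 weeks did not overlap for any of these genes, and mouse 476, the highest of the 4 at week 5 for each of them but Mmp9, was the lowest at week 8 for Crispld2. The share of all genes without overlap is not given, so nothing is read from the lack of it.

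The changes ran from -2.30 ± 0.31 for Mmp9 (SE, n = 4, limma adjusted p = 1.05e-06) to -3.95 ± 0.32 for Mmp8 (adjusted p = 2.57e-09), with Ly6g and Crispld2 both at -3.60, Cd177 at -3.32, Itgb2l at -3.16, Wfdc21 at -2.95 and Mmp25 at -2.79. All 8 fell in 4 of 4 mice, where 7.75% of 10357 genes fell and 69.5% rose, and the all-gene median was 0.74. The transgene changed by -2.51 ± 0.31 (limma adjusted p = 3.56e-07) and was at 0 in 4 of 4 libraries at week 8. Mmp8 was already lowest at week 7, with 1.01 to 7.07 TPM and a median of 4.14 TPM, and had a median of 5.93 TPM at week 8 and 4.25 TPM at week 12. Wfdc21 was likewise lower at week 7 (median 4.37 TPM) and week 12 (3.96 TPM) than at week 8 (13.5 TPM). The median haemoglobin share of TOTO mice was 66.4% at week 7, 34.2% at week 8 and 47.0% at week 12. The part of red cell RNA in these differences between weeks was not tested.

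The fall was larger in TOTO than in TKI mice for 5 of the 8 genes between weeks 5 and 8. In TKI mice at week 8, Mmp8 was 9.95, 18.8 and 36.2 TPM (lowest, median and highest of 7), above the 5.53 to 6.65 TPM of the TOTO mice. Ly6g was 1.45, 3.17 and 7.02 TPM in TKI mice at week 8, above the 0.577 to 1.31 TPM of the TOTO mice. Mmp9 was 21.4, 24.7 and 49.3 TPM in TKI mice, across the 22.5 to 41.1 TPM of the TOTO mice. The 2 proteases therefore parted: Mmp8 separated the cohorts and Mmp9 did not.

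As a difference of changes, TOTO minus TKI was -1.58 ± 0.40 for Mmp8 (SE, limma adjusted p = 0.000847), -1.56 ± 0.38 for Ly6g (adjusted p = 0.000528), -1.27 ± 0.35 for Itgb2l (adjusted p = 0.0019), -1.12 ± 0.37 for Cd177 (adjusted p = 0.00764) and -0.77 ± 0.36 for Wfdc21 (adjusted p = 0.0476). It was -0.19 ± 0.38 for Mmp9 (limma adjusted p = 0.644), -0.70 ± 0.34 for Mmp25 (adjusted p = 0.0583) and -0.83 ± 0.47 for Crispld2 (adjusted p = 0.104). The background was 3.14% lower and 80.4% higher of 10357 genes, with an all-gene median of 1.22. With red cell genes and Rn7s2 removed, and after the second scaling, 8 of 8 passed, and on the second scaling the genes' median was -2.18 in place of -0.97. Mmp9 was -1.14 on the scale without red cell genes (limma adjusted p = 0.00698) and -1.77 on the second scaling (adjusted p = 0.000554). On the deposited scale it turned to 0.029 without TKI mouse 511 and to 0.018 without TOTO mouse 545, so no direction is given for it there. Wfdc21 lost the call with a pseudocount of 0.1 (limma adjusted p = 0.0637) and with a batch term (adjusted p = 0.101), and without pairing by mouse 0 of 8 passed. TOTO mice were all of batch 2022_A, where TKI mice changed by -2.89 to -2.11 against -3.95 to -2.30 in TOTO mice.

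In late disease 3 of the 4 CML mice still followed stood above every control mouse for 7 of the 8 genes, Mmp9 being the exception, and mouse 487 stayed low. How many of all genes did the same is not given, so nothing is read from this count. Averaged over weeks 12 to 16, Itgb2l was 9.22, 0.292, 9.23 and 5.08 TPM in CML mice 480, 487, 541 and 542, against 0.169, 0.103 and 0.196 TPM in control mice. Mmp8 was 90.9, 8.68, 98.4 and 45.8 TPM in the CML mice, against 6.08, 3.82 and 23.0 TPM in control mice 488, 489 and 490. Mmp9 was 136, 20.4, 169 and 74.6 TPM in the CML mice, against 32.6, 25.3 and 88.9 TPM in control mice. The groups were apart for Itgb2l and overlapped for Mmp8 and Mmp9, with CML mouse 487 low and control mouse 490 high. Mouse 490 had Mmp8 at 33.3 TPM at week 13, 49.6 TPM at week 14 and 63.6 TPM at week 18, and mouse 487 reached 110 TPM at week 18.

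A high level in CML mice at their last week is part of what the genes were chosen by, so these late weeks are not independent of that choice. With week 1 as each mouse's baseline, only Itgb2l passed, at 1.91 ± 0.53 (SE, limma adjusted p = 0.0373), which is 1 of 8 where 0.108% of 10228 genes were higher and the all-gene median was -0.92. The other 7 ran from 0.54 for Mmp9 (limma adjusted p = 0.546) to 1.53 for Ly6g (adjusted p = 0.0983). The Itgb2l call was lost with a pseudocount of 0.1 (limma adjusted p = 0.074), without the filter (0.136), after the second scaling (0.13) and without red cell genes (0.0508). It was also lost without control mouse 488 or 489 or without any 1 TOTO mouse, since these share the fit's spread, and the count was 2 without CML mouse 480, 3 without control mouse 490 and 4 without CML mouse 487. On the later weeks alone, the setting chosen after seeing the data, 7 of 8 were higher in CML mice, where 3.13% of genes were higher and 56.1% lower. They ran from 1.49 for Cd177 (limma adjusted p = 0.0101) to 2.38 for Wfdc21 (adjusted p = 0.000363), with Mmp9 at 0.78 (adjusted p = 0.175). An exact two-sided permutation test of the same levels, 4 against 3 mice, passed 0.05 for none of the 8. Its unadjusted p was 0.0571 for Itgb2l and from 0.0857 to 0.429 for the other 7, and the smallest it could give was 0.0286.

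TOTO mice late in the study sat within or below the control span. Their average is over weeks 12 and 16 only, against weeks 12 to 16 in control mice, which takes in weeks 13 and 14 when mouse 490 was high. Ly6g was 0.501, 0.517, 0.798 and 0.678 TPM in TOTO mice, against 0.928, 0.895 and 2.72 TPM in control mice, and the groups did not overlap. Week by week they overlapped at week 12, with 0.589 to 0.883 TPM of Ly6g in TOTO mice, against 0.434 to 1.39 TPM in control mice, and did not at week 16, with 0.346 to 0.712 TPM in TOTO mice, against 1.17 to 1.85 TPM in control mice. Mmp8 was 4.60, 4.96, 5.07 and 4.95 TPM in TOTO mice, within the control span of 3.82 to 23.0 TPM. By exact two-sided permutation of these late levels, the unadjusted p was 0.0286 for Ly6g, the smallest the test could give. For the other genes it ran from 0.0571 to 0.514. With the week 1 baseline, Mmp8 (-2.59 ± 0.73, SE, limma adjusted p = 0.0251) and Wfdc21 (-3.16 ± 0.69, adjusted p = 0.00166) were lower in TOTO mice, 2 of 8 where 3.48% of genes were lower and 0.0587% higher. The count was 1 without TOTO mouse 476 or 545 or control mouse 488 or 489, and 4 without CML mouse 480, 541 or 542. The 4 TOTO mice were all of batch 2022_A and 2 of the 3 control mice of 2021_E, and with a batch term both calls were lost (limma adjusted p = 0.439 for Mmp8 and 0.147 for Wfdc21). Without the filter on the mean Mmp8 was lost as well (limma adjusted p = 0.0874). The call depended on the baseline: on the later weeks alone 0 of 8 passed by limma, each with an adjusted p of 1.0 and differences from -0.63 to -0.05, where 0% of genes were lower and 0.00978% higher (110 genes at an unadjusted p under 0.05).

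After nilotinib ended, the 8 genes were higher in every mouse that was followed. Week 11 was above week 10 in 6 of 6 TKI mice for each gene. This pattern was noticed in the values, and low week 10 levels are part of what the genes were chosen by, so nothing is read from the 18.5% of 10806 genes that did the same. Mmp8 had 284, 635 and 879 TPM (lowest, median and highest of 6) at week 11, against 13.4, 29.4 and 133 TPM at week 10 (7 mice), a median of 14.8-fold within mice (5.80 to 28). Mmp9 had 176, 303 and 483 TPM at week 11, against 28.5, 47.7 and 105 TPM at week 10, a median of 5.38-fold. Crispld2 had 60.8, 96.0 and 159 TPM at week 11, against 0.667, 2.85 and 14.1 TPM at week 10, a median of 25.3-fold (6.89 to 71.5). The 2 weeks did not overlap for any of the 3, for which no share over all genes is given. Mmp8 was above Mmp9 in all 6 libraries of week 11, as it already was in mice 511 and 512 at week 10.

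Week 11 libraries also held little red cell RNA, with haemoglobin at 0.33% to 24.7% (median 2.41%), against 12.8% to 45.1% (median 28.4%) at week 10. With red cell genes and Rn7s2 removed and the rest scaled again, all 8 were still higher in 6 of 6 mice, with median folds of 9.64 for Mmp8, 4.53 for Mmp9, 6.90 for Ly6g, 8.79 for Cd177 and 16.5 for Crispld2; 16.4% of genes did the same, which again is only description. The summed level of 14 neutrophil markers was 16965, 30014 and 49119 TPM at week 11, against 1322, 2931 and 6655 TPM at week 10. The transgene median was 8.89 TPM at week 11, against 9.82 TPM at week 10.

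**Figure D4:**
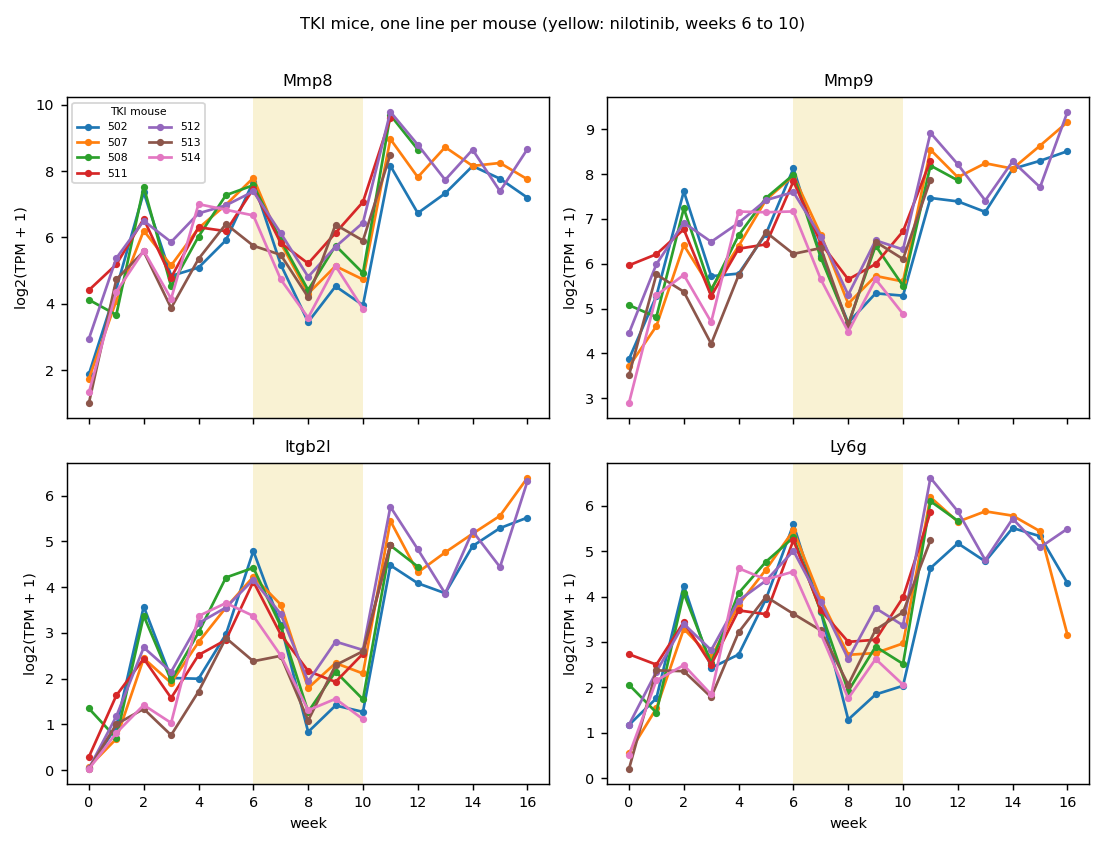
Level of Mmp8, Mmp9, Itgb2l and Ly6g (log2 of TPM + 1) by week in each of the 7 TKI mice, with the weeks of nilotinib shaded. Every followed mouse is higher at week 11 than at week 10, and at week 16 mouse 507 has its lowest Ly6g since week 10, 7.91 TPM, beside its highest Mmp9 and Itgb2l.

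At each TKI mouse's last week, reached between weeks 11 and 16, all 8 genes were higher than at week 9 in 6 of 6 mice. A high level at the end of disease is part of what the genes were chosen by, so this is description and no test of them is given; 13.3% of 10573 genes were called higher and 21.5% lower, and nothing is read from that share. The mean change was 3.65 ± 0.55 for Crispld2, 3.45 ± 0.52 for Cd177, 3.27 ± 0.75 for Itgb2l and 3.14 ± 0.515 for Wfdc21 (SD, log2, n = 6). It was 2.78 ± 0.44 for Mmp8, 2.68 ± 0.56 for Mmp25, 2.44 ± 0.87 for Mmp9 and, the least of the 8, 2.02 ± 0.90 for Ly6g. The transgene changed by 0.05 ± 1.17 (SD, n = 6) and was higher in 3 of 6 mice.

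The last weeks changed the balance among the genes. In mice 502, 507 and 512 at week 16, Ly6g was 18.6, 7.91 and 44.0 TPM, below its week 12 values of 35.0, 49.0 and 57.6 TPM in each. Mmp9 had 364, 571 and 669 TPM (lowest, median and highest of 3) at week 16, against 167, 237 and 297 TPM at week 12 (4 mice). Itgb2l had 44.9, 78.6 and 82.9 TPM at week 16, above every TKI value of week 5. Ly6g was thus lower in 3 of 3 mice while Mmp9 stood above its week 12 range.

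Ratios between genes of 1 library do not move with red cell RNA, and they show the shift between Mmp8 and Mmp9. In control libraries the ratio of Mmp8 to Mmp9 had a median of 0.163 (0.114 to 0.446 over the 56 libraries in which both were above 0). In TKI mice its median was 0.236 at week 0, 0.511 at week 1, 0.862 at week 2, 0.802 at week 5, 0.702 at week 8, 0.661 at week 10, 1.72 at week 11, 1.21 at week 12 and 0.401 at week 16. In TOTO mice it was 0.158 at week 0, 0.733 at week 5, 0.353 at week 7, 0.217 at week 8 and 0.172 at week 12. CML mice had 0.200 at week 0, 0.487 at week 5 and 0.665 at week 18. The ratio therefore stayed high through nilotinib, while both levels fell, and came back to the control span after the transgene was shut off.

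The ratio of Ly6g to Cd177, 2 surface genes of one structural family, had a TKI median of 0.443 at week 5, 0.467 at week 10, 0.291 at week 11, 0.486 at week 12 and 0.150 at week 16, where its range was 0.0291 to 0.157. In control mice it was 0.275 at week 5. The ratio of Ly6g to Itgb2l was 1.81 in TKI mice at week 5 and 0.414 at week 16, against 14.3 in control mice at week 5 (5.61 to 23.1). Itgb2l was near 0 in those control libraries, at 0.0400 to 0.124 TPM, so the control ratio is unsure. These late values rest on 3 mice, and no test was run on the ratios.

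**Figure D5:**
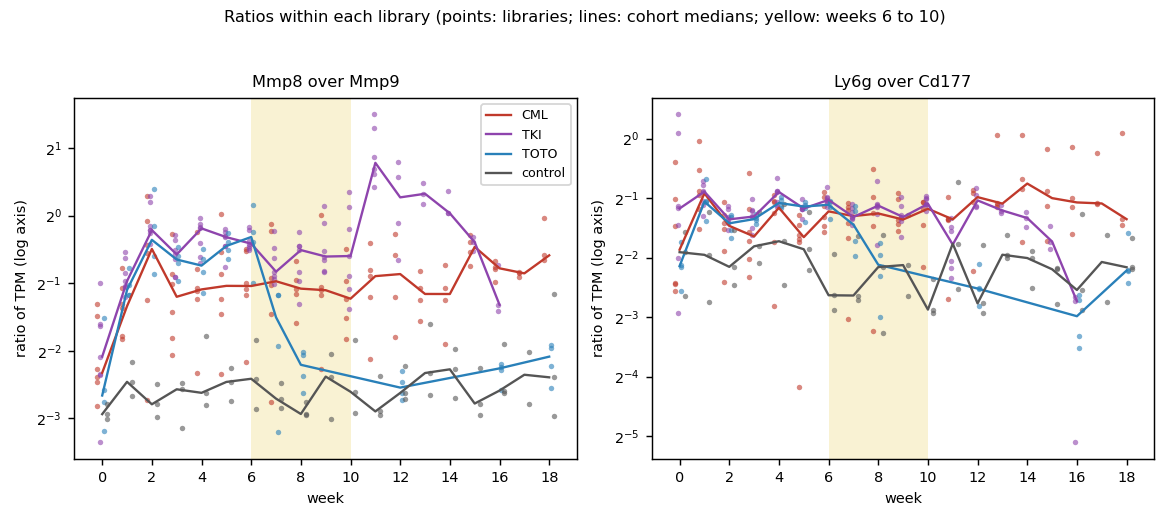
Ratio of Mmp8 to Mmp9 and of Ly6g to Cd177 (log axis) by week, as points for libraries and lines for cohort medians. The Mmp8 to Mmp9 ratio of TKI mice peaks at a median of 1.72 at week 11, and the Ly6g to Cd177 ratio of the 3 TKI mice left at week 16 has a median of 0.150.

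Relatives of the 8 genes were looked at through lists of named genes. Of other matrix metalloproteinases and their inhibitors, 7 of 22 were in the table and 3 were testable at induction, of which 1 rose (Timp2, an inhibitor, 1.34, limma adjusted p = 0.00075) and 2 fell (Mmp19, -0.40, adjusted p = 0.0188, and the inhibitor Timp3, -0.33, adjusted p = 0.0245). Mmp19 took the opposite direction to the 3 neutrophil proteases, with 1.13 in TKI mice at week 9 (limma adjusted p = 0.000242) and -1.97 at the last TKI week (adjusted p = 0.000104). In TOTO mice at week 8 it had 0.73 (limma adjusted p = 0.025), where the all-gene median was 0.74. The list's median at induction was -0.33, against 0.35 over all genes, of which 45.6% rose and 4.09% fell.

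Of 12 other Ly6 and uPAR family genes tested at induction, 6 rose and 3 fell, a share of risers near the 45.6% of all genes, with a median of 0.24 that became -0.11 after the second scaling. Plaur, the urokinase receptor, rose by 1.87 (limma adjusted p = 0.000381), fell in TKI mice at week 9 (-1.12, adjusted p = 0.0075) and was 2.00 higher at the last TKI week (adjusted p = 2.59e-07). Ly6c2, a monocyte antigen, rose by 1.36 at induction (limma adjusted p = 0.00105) and had -0.15 at week 9 in TKI mice (adjusted p = 0.862). Ly6d, a lymphoid member, rose by 2.83 in TOTO mice at week 8 (limma adjusted p = 2.42e-08).

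Among 18 genes of the beta 2 integrins and leukocyte adhesion, 8 rose and 2 fell at induction, near the 45.6% of all genes that rose (median 0.35, or -0.10 after the second scaling). Itgb2, the true beta chain to which Itgb2l is related, did not pass in any of the 4 within-cohort comparisons, with 0.30 at induction (limma adjusted p = 0.0948), 0.27 in TKI mice at week 9 (adjusted p = 0.373), -0.29 in TOTO mice at week 8 (adjusted p = 0.128) and 0.00 at the last TKI week (adjusted p = 0.991). Itgam, its alpha partner on myeloid cells, rose by 1.56 at induction (limma adjusted p = 0.000488), fell in TKI mice at week 9 (-0.80, adjusted p = 0.0317) and in TOTO mice at week 8 (-1.55, adjusted p = 8.85e-06), and rose by 1.90 at the last TKI week (adjusted p = 6.44e-07).

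All 4 testable genes of the list of whey acidic proteins and other inhibitors (Slpi, Wfdc17, Spint1 and Spint2) rose at induction (median 0.94), where 45.6% of all genes rose. In TOTO mice at week 8 all but Spint2 (1.02, limma adjusted p = 0.00015) fell, where 7.75% of all genes fell. Slpi, a secreted protease inhibitor, rose by 0.45 at induction (limma adjusted p = 0.0329) and changed by -2.37 in TOTO mice at week 8 (adjusted p = 5.26e-09), beside -0.22 in TKI mice at week 9 (adjusted p = 0.644). At week 8 minus week 5 its TOTO minus TKI difference was -1.77 (limma adjusted p = 1.93e-06). All 3 testable CAP-domain relatives of Crispld2 (Pi16, Glipr1 and Glipr2) rose at induction (median 1.16), where 45.6% of all genes rose. They fell in TOTO mice at week 8, where 7.75% of all genes fell. Pi16 of that list had 1.57 at induction (limma adjusted p = 0.000394) and -0.96 in TKI mice at week 9 (adjusted p = 0.00695).

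The granule lists and the neutrophil markers were counted in the same comparisons. At induction, where 45.6% of all genes rose, 15 of 15 secondary granule genes rose (median 1.83), as did 14 of 17 of the gelatinase granule and secretory vesicle list (0.80), 2 of 3 primary granule genes and 13 of 13 neutrophil markers (1.74). The secondary granule genes included Ngp, which changed by -4.68 in TOTO mice at week 8 (limma adjusted p = 1.17e-09), and Lcn2, by -4.21 (adjusted p = 1.47e-09). In TKI mice at week 9, 12 of 15 secondary granule genes, 7 of 18 gelatinase list genes (median -0.36), 1 of 3 primary granule genes (median -0.14) and 12 of 13 neutrophil markers fell, where 2.42% of all genes fell. In TOTO mice at week 8, 14 of 15 secondary granule genes, 10 of 18 gelatinase list genes, 2 of 3 primary granule genes and 13 of 13 neutrophil markers fell, where 7.75% of all genes fell and 1 of the 3 primary granule genes rose, while Cybb, which is on both granule lists, and Cr1l, Stx4a and Vamp2 of the gelatinase list rose, by 0.58 to 1.13 where the all-gene median was 0.74. At the last TKI week 13 of 16 secondary granule genes, 9 of 18 gelatinase list genes and 6 of 8 primary granule genes rose, where 13.3% of all genes rose.

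Other cell types moved at the same time. The summed neutrophil markers, 14 genes, were 5944 to 15411 TPM in TKI mice at week 5, 1284 to 2835 at week 8 and 2391 to 5328 at week 9, and in TOTO mice 929 to 1328 TPM at week 8, against 6237 to 15958 TPM at week 5. At induction 8 of 12 monocyte and 7 of 11 B cell markers rose, where 45.6% of all genes did. Over the same weeks 8 of 11 erythroid, 5 of 12 platelet, 5 of 9 NK cell and 1 of 12 T cell markers fell, where 4.09% of all genes fell. In TOTO mice at week 8, where 69.5% of all genes rose, 11 of 11 B cell, 10 of 12 T cell and 8 of 8 NK cell markers rose. There 7 of 12 platelet markers fell, where 7.75% of all genes fell. The T and NK cell medians of 0.80 and 0.91 became 0.02 and 0.24 after the second scaling. In TKI mice 9 of 12 platelet and 6 of 12 T cell markers rose at week 9, where 9.05% of all genes rose. At the last week 12 of 12 platelet and 11 of 11 B cell markers fell, where 21.5% of all genes fell. The part of such shifts in the 8 genes' changes was not tested.

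Over all libraries, with each mouse's mean removed, the genes most like the average of the 8 were Mapk13 (Pearson r = 0.981), Ceacam10 (0.979), Lcn2 (0.977), Fpr2 (0.971), Retnlg (0.969), Fpr1 (0.965), Mrgpra2b (0.962), Cd33 (0.960), S100a9 (0.959) and Cpne2 (0.958). Gene by gene, the closest outside the 8 was Lcn2 for Mmp8 (0.980) and Wfdc21 (0.985), Padi4 for Mmp9 (0.982), Mapk13 for Mmp25 (0.985) and Cd177 (0.969), Ceacam10 for Itgb2l (0.950), Mrgpra2b for Ly6g (0.936) and Cpne2 for Crispld2 (0.972). Among themselves the least alike pair was Mmp9 and Itgb2l (0.850). Mmp25 lay closest to the average of the 8 (0.992) and Mmp9 farthest (0.951). Libraries of a mouse share that mouse, and all share the TPM scale, so these values describe the samples and carry no p.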

How the data were processed

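Whole-blood RNA of 20 mice was sequenced, weekly in all but the TOTO mice. Libraries were made after ribosomal RNA depletion, were reverse stranded and came from RNA with a RIN above 4, per the labels' protocols. The authors deposited 1 table of TPM for 14605 features, filtered by them so that 14604 of the features reach 1 TPM in 5 libraries. Per the submitters' processing notes, STAR, Salmon and the build GRCm39 were used; their versions are not given in the sources used here. TPM keeps no depth, so the depth is unknown and no counting interval can be given. Every column matched 1 sample label, with 0 unmapped, and cohort, mouse and week came from the labels. Gene names came from GENCODE M39 (14537 features matched).

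From the deposited TPM values, log2(TPM + 1) was computed. Changes between weeks were fitted within mice with limma 3.58.1 in R 4.3.3, over all genes with a mean of at least 1 TPM, and p-values were adjusted by Benjamini and Hochberg over all genes tested, with a threshold of 0.05. The same mouse number marks the same animal, so the mouse was the pairing. A fold on this scale understates the change of low genes. Pairs of genes were compared by exact sign-flip permutation over mice, two-sided, adjusted over 28 pairs. Late levels were also compared between cohorts by exact permutation of mice, two-sided and unadjusted. Other steps used scipy 1.17.1, pandas 2.3.3 and numpy 2.4.6 in Python 3.11.15 and drawings matplotlib 3.10.9, and the fits were tested on simulated data.

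The 8 genes and the lists were chosen with earlier results of these data known. The rule took all 8 in every comparison, given one by one or, in the comparisons with control mice, partly as a range, with up to 3 genes of smallest p per list and comparison; further list genes were named after their values were seen. Likeness is Pearson's r over all libraries after each mouse's mean was removed, among genes with a mean of at least 1 TPM, giving the 10 genes outside the 8 that are most like their standardised mean. Alternatives tried were a pseudocount of 0.1, no filter on the mean, scaling each library by its median ratio, removing red cell genes and Rn7s2, no pairing by mouse, a batch term, leaving out each mouse, and, chosen after seeing the data, later weeks without the week 1 baseline. The labels do not say whether a batch is an extraction or a sequencing run.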

Additional observations from a re-analysis of the deposited data

Results flagged for a closer look

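In 80 groups of 4 to 10 mice, a sample far from the rest of its own group was looked for, which chance alone gives in about 1 of 20 groups. TOTO mouse 476 gained less than the other 3 TOTO mice from week 1 to week 5, with log2 changes of 2.19 for Cd177, 1.67 for Ly6g, 0.98 for Mmp9 and 1.29 for Wfdc21. Its late change of Ly6g, weeks 12 to 16 minus week 1, was far below theirs at -2.89. The late level itself was 0.501 TPM, near the 0.517, 0.798 and 0.678 TPM of mice 482, 483 and 545. Its week 1 library held 21.1% haemoglobin, against 62.9%, 53.3% and 52.9% in those mice, and the part of this in the changes was not tested. CML mouse 487 stood below the other CML mice for Crispld2 over the same late weeks, with 0.13. TKI mouse 511 stood apart for Mmp9 at week 8 minus week 5, with -0.78.

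Differences between cohorts under the same contrast that passed the limma test of the difference itself were these, in log2 units. For late weeks minus week 1, CML minus control was 1.91 for Itgb2l, and TOTO minus control was -2.59 for Mmp8 and -3.16 for Wfdc21. For week 9 minus week 5, TKI minus CML was -1.92 for Mmp25, -1.80 for Cd177, -1.81 for Itgb2l, -2.14 for Ly6g, -1.93 for Wfdc21 and -2.62 for Crispld2. For week 8 minus week 5, TOTO minus TKI was -1.58 for Mmp8, -1.12 for Cd177, -1.27 for Itgb2l, -1.56 for Ly6g and -0.77 for Wfdc21.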

How the results depend on the processing

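All 8 genes passed at induction, in TKI mice at week 9 and in TOTO mice at week 8 under every alternative that keeps the pairing by mouse. They also passed there without each mouse in turn (8 to 8 of the genes). Over all genes these ranges were 3408 to 6872 at induction, 860 to 1745 in TKI mice at week 9 and 6449 to 8151 in TOTO mice. At the last TKI week, 2431 to 4567 of all genes passed without single mice. No test of the 8 is given there, because a high level at the end of disease is part of what they were chosen by. In TKI mice at week 9, without the replicate block 0 of 8 and 71 genes passed; 2753 did after median-ratio scaling, 2305 without red cell genes and Rn7s2, and 724 with a batch term. For Tet-off minus control, 2 genes of all passed with a batch term and 0 to 3 without single mice (0 to 0 of the 8), and 690, with 7 of the 8, without the week 1 baseline. For CML minus control, the count of the 8 was 0 with a pseudocount of 0.1, without the filter, after median-ratio scaling, without red cell genes and without the block, 7 without the baseline, and 0 to 4 without single mice; over all genes it was 8, 0, 1, 0, 0, 6058 and 0 to 5731 in that order, and 38 with a batch term. For TOTO minus control, the 8 gave 4 with a pseudocount of 0.1, 1 without the filter, 4 after scaling, 0 without the block, with a batch term or without the baseline, and 1 to 4 without single mice; over all genes, scaling gave 833, no block 0, batch 148, no baseline 1, and single mice 192 to 465. For TKI minus CML, the 8 gave 0 without the block, 3 with a batch term and 1 to 8 without single mice; all genes gave 47 with a pseudocount of 0.1, 37 without the filter, 824 after scaling, 468 without red cell genes, 0 without the block, 32 with a batch term and 14 to 1114. For TOTO minus TKI, the 8 gave 8 after scaling and without red cell genes, 0 without the block and 4 to 7 without single mice, and all genes 5718 after scaling and 7977 to 8812. Mmp9 in TOTO minus TKI mice ranged from -0.43 to 0.029 without single mice, above 0 without TKI mouse 511 (0.029) or TOTO mouse 545 (0.018). Pairs at induction numbered 11 to 14 without single mice and in TKI mice 0 to 0. Of the alternative values of single genes, 1400 kept direction and call, 50 gained the call, 92 lost it and 2 turned. The causes were not tested; depth is unknown.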
